A study of Homo sapiens with 4 samples.

Results

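The longest and the shortest treatment with methylthioacetic acid (MTA) in RCM-1 cells were set against each other. RCM-1 is an established human cell line from a well-differentiated rectal adenocarcinoma, and its cell sheets form domes, blisters in which polarised cells lift off the dish over fluid they have pumped beneath them. MTA, the acid unit of sulphur compounds found in melon, was applied at 1 mM to nearly confluent cells for 6 or 18 h and was then replaced by vehicle medium until harvest at 24 h. The cells of the 6 h array had therefore been without MTA for 18 h at harvest and those of the 18 h array for 6 h, so a longer exposure and a shorter recovery cannot be told apart. Both groups shared the cell line, the dose and the acetonitrile vehicle, and each is 1 array of 1 culture, labelled replicate 1. The other 2 of the 4 arrays of the study, 0 h and 12 h of MTA, are used here only as a setting for the comparison. The harvest time of the 0 h array is not stated outright, so a difference from 0 h may include a difference in time in culture. Of 54613 probe sets other than controls, 20188 had a signal of 50 or more on at least one of the 2 arrays and were reported, and they stand for 10295 of the 19752 genes that the array covers with a probe set of 1 gene symbol. With 1 array on each side no test was made.

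A dividing cell passes through G1, in which it commits to division, S phase, in which DNA is copied, G2 and mitosis. The E2F transcription factors, held back by RB1 and its relatives until cyclin E and CDK2 become active, switch on the genes of S phase. A different set of genes, switched on later by complexes that bind CHR and CCAAT elements in their promoters, builds the spindle and drives mitosis. In the intestine, cells stop dividing as they leave the crypt and take on absorptive or secretory functions.

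Each deposited signal was divided by the median of its array, which was 20.8 at 6 h and 16.4 at 18 h. This adds 0.34 to every log2 ratio of the deposited signals, so a signal that is equal on both arrays has a log2 ratio of 0.34. Ratios are given as 18 h over 6 h, and a negative log2 ratio means a lower level after 18 h of MTA. The log2 ratios of a gene's 2 brightest reported probe sets differed with an SD of 0.395 and a median absolute difference of 0.213 (n = 4471 genes), and with an SD of 0.329 where both reached 50 on both arrays (n = 3733 genes). This spread lies within the same 2 arrays, and variation between cultures is not part of it. The ratio of the 3′ to the 5′ control probe set, which grows as RNA degrades, was 1.44 at 6 h and 1.63 at 18 h for GAPDH and 4.76 and 6.45 for ACTB, and its part in the results was not tested. The epithelial identity of the cells was plain on both arrays: 14 of 15 colonic epithelial markers on the array were reported, with EPCAM at 10089 and 7798, while VIM, PTPRC, CD3D, PDGFRB and CDH5 stayed below 20 on both. LYZ, an immune marker that secretory epithelium also makes, had signals of 2998 and 2192, and COL1A1, listed as stromal, had 153 and 144. In all, 3 of 16 stromal and endothelial and 2 of 13 immune markers on the array reached the filter, with summed signals of 356 and 239.9 for the former at 6 and 18 h.

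With division by the array median, more genes were lower than higher after the longer treatment. Of the 20188 reported probe sets, 746 were below −1 on the log2 scale (3.7%) and 173 were above 1 (0.857%). In terms of genes, each read by its brightest probe set, 306 were lower (2.97%) and 96 were higher (0.932%). Among the probe sets beyond 2-fold, 81.2% were lower (exact Clopper-Pearson 95% interval 78.5 to 83.7, for counting error only). That interval takes probe sets as independent, although several can read the same gene. The counts of lower and higher depended on how the 2 arrays were brought to 1 scale. The lower share of probe sets was 97.9% with the deposited scaling, 96.9% relative to the hybridization controls and 68.9% relative to the poly-A controls. It was 58.5% with quantile normalization, 48.4% with division by the trimmed mean and 47.9% with the ratios centred on their own median. More genes were higher than lower with quantile normalization (155 and 147), the trimmed mean (175 and 131) and centred ratios (176 and 128).

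The median log2 ratio of all reported genes was −0.25, and across the other scalings it ran from −0.59 to 0.01. Gene groups are therefore also given as a shift from this median, which a change of scale by a single factor does not alter. The ratio depended little on brightness between signals of 50 and 5000, where the median in bins of the geometric mean signal lay between −0.19 and −0.31. In the 397 probe sets above 5000 it was −0.01. The SD of the ratio went from 0.739 below a geometric mean of 50 to 0.201 above 5000. Of the lower probe sets, 409 had a signal under 50 at 18 h, and of the higher ones 94 had a signal under 50 at 6 h, so the sizes of those ratios rest on a dim reading. At the filter itself the dimmest reported probe set had a brighter signal of 50.01 and a log2 ratio of −0.46, and the brightest one left out had 49.999 and −1.21.

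**Figure D1:**
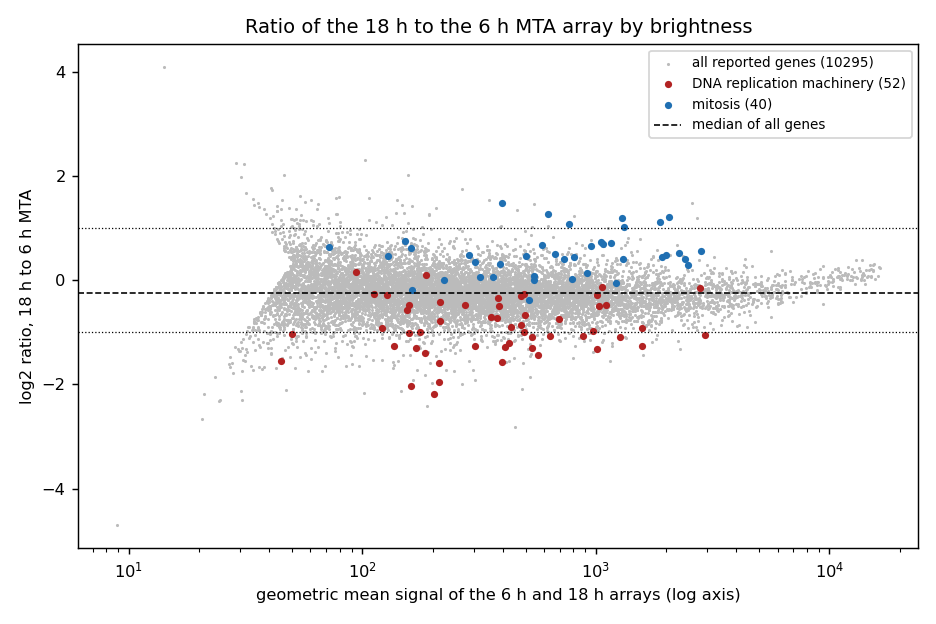
Log2 ratio of the 18 h to the 6 h MTA array (vertical axis, each array divided by its median) against the geometric mean signal of both arrays (horizontal log axis), with a point for each of 10295 reported genes, dotted lines at 2-fold and a dashed line for the median over all genes, −0.25. Replication genes (red, 52) lie mostly below the dashed line and mitosis genes (blue, 40) mostly above it, at signals where the 2 sets overlap.

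The gene with the lowest ratio among those at 50 or more on both arrays was CCNE2, which encodes cyclin E2, the partner of CDK2 at the entry into S phase. Its signal was 1350.4 after 6 h of MTA and 150.2 after 18 h, with 1012 at 0 h and 414 at 12 h. The log2 ratio was −2.82, a 7.08-fold lower level, and −1.98 on a second probe set. CCNE1, the other cyclin E, had signals of 270.3 and 68.8 and a ratio of −1.63. CDC25A, the phosphatase that activates CDK2, went from 111 to 20.1, a dim reading, with −2.11 on its brighter and −2.51 on its other probe set. The kinase itself, CDK2, had signals of 998 and 331 and a ratio of −1.25.

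Among the E2F factors, 3 were below −1. E2F2, an activator, had signals of 193 and 55.8 (log2 ratio −1.45), while E2F1, at 124 and 51.8 (−0.91), and E2F3, at −0.99, did not pass 2-fold. Of the atypical repressors, E2F7 had 359.7 and 75.2 (−1.91) and E2F8 509 and 120.3 (−1.74). E2F6, E2F4 and E2F5 had −0.77, −0.59 and −0.08. DTL, which targets the licensing factor CDT1 for destruction, had 1119.8 at 6 h and 207 at 18 h, and its pair of probe sets gave −2.09 and −1.89. UHRF1, which maintains DNA methylation behind the replication fork, had 2221 and 596 (−1.55).

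Of 30 reported G1/S regulators, 11 were below −1 and none was above 1, against 2.97% and 0.932% of all genes. Their median was −0.87, a shift of −0.63 from all genes. The regulators that act earlier in G1 differed less between the 2 arrays: CDK4 had a ratio of −0.61 and CCND1, cyclin D1, −0.46. MYC, a growth-promoting transcription factor, had −0.43, with signals of 4211 and 2459, beside 7421 at 0 h. CDK6 had 0.36 and TFDP2, a partner of E2F, 0.41, the highest of the list. CCNA2, cyclin A2, which acts in S phase and G2, had signals of 549 and 399 and a ratio of −0.12. Genes of the replication, G1/S and mitosis lists beyond those that the naming rule gives were named by complex or role after their values had been seen.

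The machinery that copies DNA was lower after 18 h almost throughout. Of 52 reported genes, 23 were below −1, none was above 1, and 50 were below 0, beside 75.4% of all reported genes. The list's median was −0.95, a shift of −0.70, and under the other scalings it stayed between −1.29 and −0.69. The number below −1 ran from 13 with centred ratios to 35 with the deposited scaling. Of the genes that load and start the helicase, CDC6 had 487 at 6 h and 84.8 at 18 h, and its pair of probe sets gave −2.18 and −2.17. CDC45, which completes the active helicase, had 369 and 71.4 (−2.03), and MCM10, which helps to fire origins, had 470.1 and 95.9 (−1.95, with −1.19 on the probe set that moved least).

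All 6 subunits of the MCM helicase were lower, from −1.57 for MCM5 to −0.74 for MCM7. The signal of MCM5 went from 769.6 to 204, that of MCM3 from 1807 to 569.9 (−1.32) and that of MCM6 from 2736 to 903 (−1.26). MCM2 and MCM4 both had −1.07, and the 4 probe sets of MCM4 ran from −1.72 to −0.82. The GINS complex, which joins the helicase, was split: GINS2 had −1.30, GINS4 −1.04 and GINS1 −0.99, but GINS3 had −0.27 on its brightest probe set and −1.57 on the other.

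Behind the helicase, POLA2, a subunit of the polymerase that lays down primers, had signals of 416 and 109 and a ratio of −1.59. PCNA, the sliding clamp, was the brightest gene of the list, with 4758 at 6 h and 1806 at 18 h (−1.05). RFC2, part of the clamp loader, had −1.41, FEN1, which trims Okazaki fragments, −1.09, and TIPIN and CLSPN, which guard the stalled fork, −1.44 and −1.54, the last at signals of only 86.2 and 23.3. The origin recognition complex held the least changed members: ORC2 had 204 and 173 (0.10) and ORC4 −0.13, whereas ORC6 had 871 and 324 (−1.08). CHTF18, of an alternative clamp loader, had the highest ratio of the list at 0.15.

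**Figure D2:**
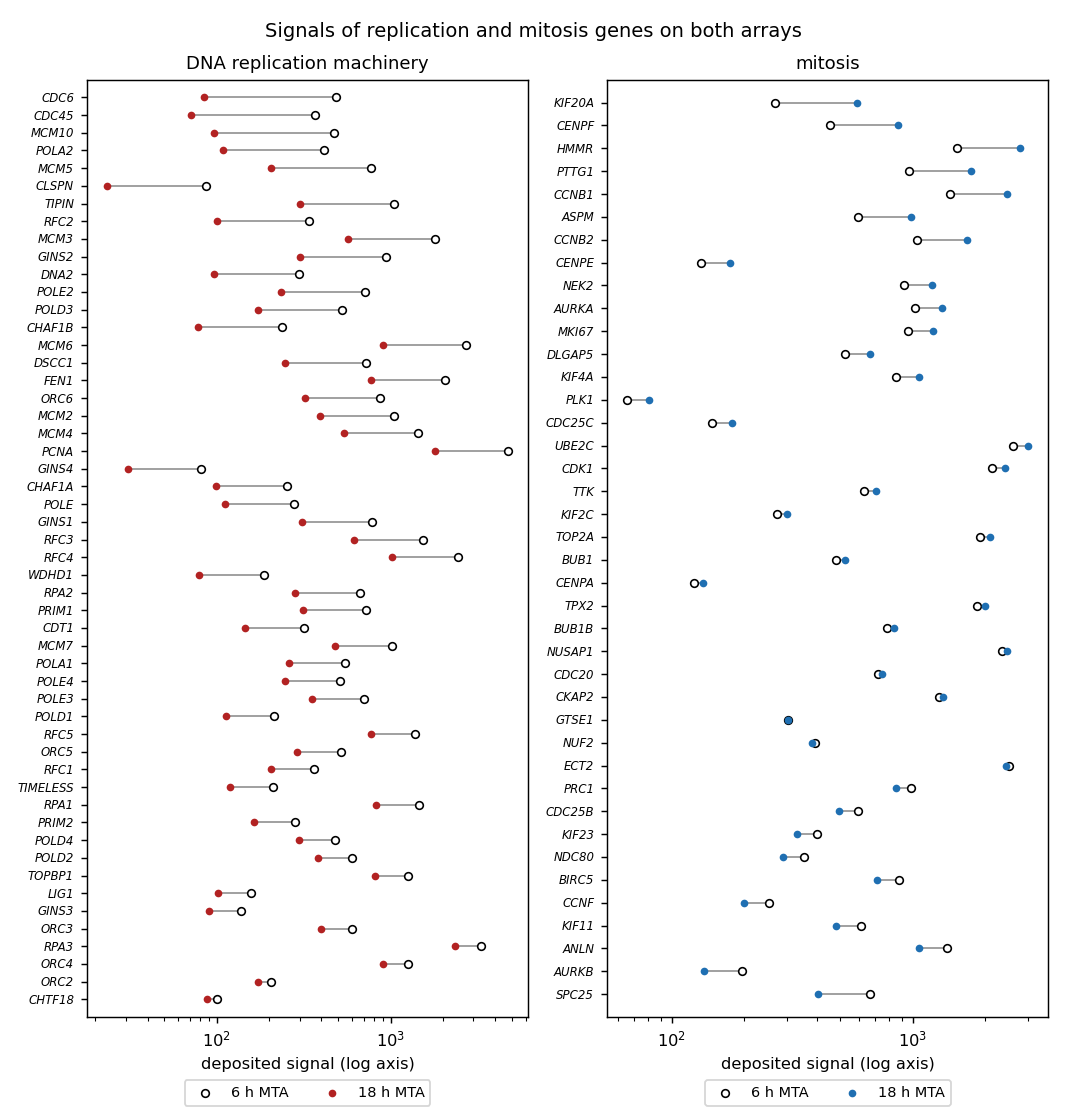
Deposited signals (horizontal log axes) of the 52 reported replication genes and the 40 reported mitosis genes, with an open circle for the 6 h and a filled circle for the 18 h array, ordered by their log2 ratio. All 52 replication genes have a lower signal at 18 h, with the widest gaps for CDC6 and CDC45, while 27 of the 40 mitosis genes have a higher one, with the widest gaps for KIF20A and CENPF.

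The cell-cycle genes that the study picked out as shared by its GO and KEGG terms were all reported. Of these 13 genes, 9 were below −1, beside 2.97% of all genes, and none was above 1. Their median was −1.45 and they ranged from −2.82 for CCNE2 to −0.43 for MYC. The study chose them on these arrays, so their direction here is not independent evidence. The 4 that stayed above −1 were SKP2, part of the ligase that destroys p27, at −0.95, ATR, the kinase of the replication checkpoint, at −0.68, POLE3, a polymerase subunit, at −0.66, and MYC.

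The letters that E2F factors are known to bind can be seen before the starts of several of these genes. The 80 bases before the transcription start are shown for 4 of the lower genes, chosen for a match, from RefSeq on GRCh38.p14, with TTTGGCGC or TTTGGCGG in capitals. CDC6 lies on the plus strand (chr17:40287799-40287878), CDC45 on the plus strand (chr22:19479840-19479919), CDC25A on the minus strand (chr3:48188418-48188497) and E2F2 on the minus strand (chr1:23531234-23531313).
CDC6: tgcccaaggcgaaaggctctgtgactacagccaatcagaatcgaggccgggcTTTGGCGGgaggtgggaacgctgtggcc
CDC45: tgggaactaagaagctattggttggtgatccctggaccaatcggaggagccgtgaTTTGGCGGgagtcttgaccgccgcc
CDC25A: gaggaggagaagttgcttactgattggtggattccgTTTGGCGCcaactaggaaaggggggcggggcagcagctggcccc
E2F2: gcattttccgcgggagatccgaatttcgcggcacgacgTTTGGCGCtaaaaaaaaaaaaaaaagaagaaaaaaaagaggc
The match begins 28 bases before the start in CDC6, 25 in CDC45, 44 in CDC25A and 42 in E2F2.

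Repair genes that work beside the fork shared part of the difference. EXO1, an exonuclease of mismatch repair, had signals of 394 and 87.3 (log2 ratio −1.83). UNG, which removes uracil from DNA, had 1501 and 421 (−1.49), and MSH6, which recognises mismatches, had 1772 and 535 (−1.39, with −0.72 on a second probe set). Of 33 reported genes of DNA repair and checkpoint, 6 were below −1, beside 2.97% of all genes, and none above 1, with a median of −0.50. Among 11 genes of deoxynucleotide supply only RRM2, the S-phase subunit of ribonucleotide reductase, was below −1, with 4079 and 1291. Its ratio was −1.32, but −0.83 on its second probe set. RRM1, the other subunit, had −0.60 and TYMS, which makes thymidylate, −0.59. Among 19 genes of purine and pyrimidine synthesis CTPS1, which makes CTP, had 387 and 111 (−1.46) and the median was −0.53.

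Mitosis genes stood on the other side of the comparison. KIF20A, a kinesin of the central spindle, went from a signal of 268 at 6 h to 589 at 18 h, with a log2 ratio of 1.48. CENPF, a kinetochore protein, had 453 and 865 (1.28, and 0.87 on its second probe set), and HMMR, a spindle protein, had 1521 and 2788 (1.22 and 1.16). PTTG1, securin, which holds sister chromatids together until anaphase, had 965 and 1739 (1.19). The B-type cyclins that drive mitosis were both higher: CCNB1 had 1435 and 2453 (1.12 and 1.11 on its pair of probe sets) and CCNB2 had 1045 and 1674 (1.02). ASPM, at the spindle poles, had 594 and 986 (1.07).

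Of 40 reported mitosis genes, these 7 were above 1, against 0.932% of all genes, none was below −1, and 36 were above 0, whereas 75.4% of all reported genes were below it. The median was 0.48, a shift of 0.72 from all genes, and it stayed above 0 under every other scaling tried, from 0.13 to 0.75. The number above 1 was 8 with the trimmed mean, centred or quantile-normalised ratios, 2 relative to the hybridization controls and 1 with the deposited scaling, in which 27 of the 40 had a higher signal at 18 h and 13 a lower one. The other regulators moved less. CDK1, the kinase partner of cyclin B, had 2142 and 2427 (0.52), AURKA 1018 and 1318 (0.72), PLK1, at dim signals of 65.3 and 80.2, 0.64 and MKI67, the proliferation marker, 954 and 1212 (0.69, with 0.10 on the probe set that moved least). SPC25, a kinetochore protein, had the lowest ratio at −0.37, followed by AURKB at −0.18.

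The letters searched in the promoters of mitosis genes were CCAAT and the CHR element, TTTGAA or TTTAAA. The 80 bases before the start are shown for 4 of the 7 genes above 1, chosen for holding both, with CCAAT (or ATTGG, its reverse complement) and the CHR letters in capitals. All lie on the plus strand of GRCh38.p14: CCNB1 at chr5:69167070-69167149, KIF20A at chr5:138179032-138179111, PTTG1 at chr5:160421775-160421854 and CCNB2 at chr15:59105066-59105145.
CCNB1: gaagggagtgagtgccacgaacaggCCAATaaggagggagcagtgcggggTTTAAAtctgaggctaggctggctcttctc
KIF20A: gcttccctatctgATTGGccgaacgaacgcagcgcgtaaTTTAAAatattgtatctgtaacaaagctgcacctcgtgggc
PTTG1: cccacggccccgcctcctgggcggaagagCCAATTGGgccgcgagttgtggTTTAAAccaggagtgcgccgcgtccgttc
CCNB2: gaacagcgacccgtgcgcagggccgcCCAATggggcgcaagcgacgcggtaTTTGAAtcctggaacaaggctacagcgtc
In PTTG1 a forward and a reverse CCAAT overlap. The CHR letters begin 30 bases before the start in CCNB1, 41 in KIF20A, and 29 in PTTG1 and CCNB2.

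Over whole lists the letters were counted in 1 window per gene, from 250 bases before to 50 after the first listed start, on both strands. The E2F letters searched were TTTGGCGC, TTTCGCGC, TTTCCCGC and TTTGGCGG. They occurred in 24 of 44 replication genes with a window (54.5%), in 10 of 23 G1/S regulators (43.5%) and in 5 of 35 mitosis genes (14.3%), beside 3.43% of all 27305 genes with a window and 5.8% of the 8540 reported ones. Matches of different strings can overlap, and a gene counts once. CHR letters together with CCAAT occurred in 23 of 35 mitosis genes (65.7%), in no replication gene, and in 9.49% of all genes and 6.23% of the reported ones. CCAAT, with or without CHR letters, occurred in 26 of 35 mitosis genes (74.3%), 26 of 44 replication genes (59.1%) and 37.1% of the reported genes. It also stands, unmarked and on either strand, in the stretches of CDC6, CDC45 and CDC25A shown above. CHR letters alone were found in no replication gene.

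The same count can be read from the sequence side. Of 495 reported genes with E2F letters, 35 were lower by over 2-fold (7.07%) and 1 was higher (0.202%). Of the 8045 without them, 205 were lower (2.55%) and 73 higher (0.907%). Of 532 reported genes with CHR and CCAAT letters, 14 were higher (2.63%) and 11 lower (2.07%), and of the 8008 without both, 60 were higher (0.749%) and 229 lower (2.86%). The medians lay close together, at −0.34 with and −0.25 without E2F letters and at −0.21 with and −0.26 without CHR and CCAAT letters. A match in these windows is a description of the sequence only.

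**Figure D3:**
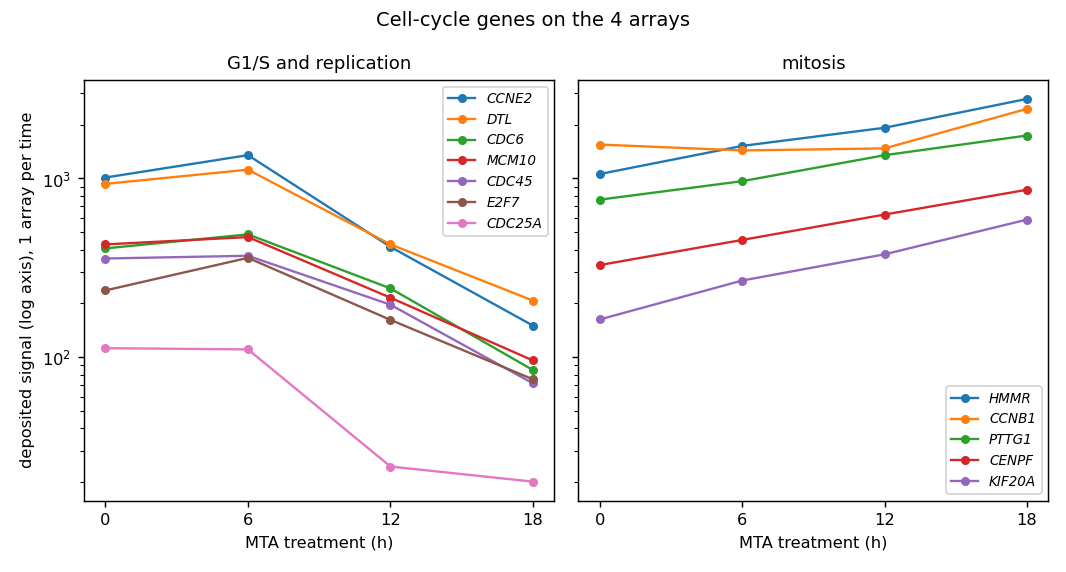
Deposited signals (vertical log axis) of 7 G1/S and replication genes and 5 mitosis genes against the hours of MTA (horizontal axis), with a point for each array and 1 array per time. The G1/S and replication genes have signals at 6 h within 2-fold of those at 0 h and lower ones at 12 and 18 h, and all 5 mitosis genes are highest at 18 h.

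The 0 h and 12 h arrays were set beside the difference, with the harvest time of the former unstated. Of the 306 lower genes, 283 were within 2-fold of 0 h at 6 h, beside 9807 of all 10295 reported genes. Their median log2 difference from 0 h was −0.16 at 6 h and −1.42 at 18 h, against −0.19 and −0.44 over all reported genes. For 287 of the 306 lower genes the level at 12 h lay between the levels at 6 and 18 h. This was so for 49.9% of all reported genes, and the choice of genes partly fixes the share. The 12 h array against the 0 h array uses neither of the arrays compared: 82 of the 306 lower genes were lower at 12 h by over 2-fold (26.8%) and 10 were higher, beside 6.13% and 3.79% of all reported genes. Of the 96 higher genes, 35 were higher at 12 h than at 0 h by over 2-fold (36.5%) and 6 were lower.

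The cell-cycle lists moved in the same way over the 4 arrays. All 52 replication genes were within 2-fold of 0 h at 6 h, beside 9807 of all 10295 reported genes. At 6, 12 and 18 h their median differences from 0 h were −0.15, −0.42 and −0.99. The G1/S regulators had −0.24, −0.57 and −1.09. The mitosis genes had 0.19, 0.47 and 0.66, and 36 of 40 were already above 0 h at 12 h, beside 3004 of all 10295 reported genes. All these levels were divided by the array medians, and the order of the arrays is that of longer exposure and of shorter recovery alike.

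Few immediate early genes, which growth factors switch on, were beyond 2-fold. EGR3, a transcription factor of this kind, had signals of 666 at 6 h and 139 at 18 h, beside 331 at 0 h (log2 ratio −1.91), and FOSL1, a subunit of AP-1, 193 and a dim 48.7 (−1.64). FOS, at 452 and 179 (−0.99), and JUND and JUNB, at −0.98 and −0.95, stayed within 2-fold. Of 24 reported AP-1 and immediate early genes, 2 were below −1, beside 2.97% of all genes, and only EGR3 of these was at 50 or more on both arrays. CCN2, a matrix protein, was above 1 at 1.04, with signals of 50.2 and 81.3. The list's median was −0.58, the lowest outside the cell-cycle lists, a shift of −0.34.

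Of the feedback inhibitors of the ERK pathway, phosphatases were lower. DUSP5, a nuclear phosphatase of ERK, had 2233 and 815 (−1.11), DUSP1 502 and 181 (−1.13) and DUSP7 386 and 148 (−1.04). SPHK1, a lipid kinase, went from 75.8 to 12.2 (−2.29), a dim pair beside 5.59 at 0 h, so that the 6 h reading stood apart. Of 22 reported genes of ERK output 5 were below −1, FOSL1 among them, and none was above 1, beside 2.97% of all genes, with a median of −0.43, a shift of −0.18. Of the 20 at 50 or more on both arrays, 3 were below −1. Of 10 EGFR ligands and ERBB receptors only EREG, epiregulin, was below −1, with 1995 and 682 (−1.20), and the median was −0.46.

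Lists of ribosome assembly and of mitochondria lay a little below the median of all genes, −0.25, in the ratio of these 2 arrays. The small-subunit and large-subunit lists had median differences from 0 h of −0.68 and −0.74 at 6 h. At 18 h they had −1.20 and −1.19, beside −0.19 at 6 h and −0.44 at 18 h over all reported genes. BYSL, needed to mature the small ribosomal subunit, had 243 at 6 h and a dim 42.6 at 18 h (−2.17). URB2, BRIX1 and LAS1L, of large-subunit assembly, had −1.48, −1.26 and −1.19. In each of these lists 3 genes were below −1 and none above 1, of 48 reported for the small and 45 for the large subunit, with medians of −0.44 and −0.47, shifts of −0.20 and −0.22, beside 2.97% of all genes below −1. WDR4, a subunit of a tRNA methyltransferase, had 845 and 237 (−1.49, with −0.88 on its dimmest probe set), and 4 of 28 genes of tRNA modification were below −1. TRMT10A, also a tRNA methyltransferase, had 1.37 from dim signals, but 0.02 on its other probe set. POLR3K and POLR1G, subunits of RNA polymerases III and I, had −1.31 and −1.21. The 18 snoRNP and nucleolar proteins had none beyond 2-fold and a median of −0.51, a shift of −0.26, and 37 genes of translation initiation had 2 below −1 and a median of −0.40, a shift of −0.15.

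Mitochondrial ribosomal proteins had no extreme member. Of 75 reported, 73 had a ratio below 0, beside 75.4% of all genes, none was beyond 2-fold, and the median was −0.49, a shift of −0.24, with the lowest value for MRPS26 at −0.98. All 41 genes of respiratory complex I were below 0 as well, with a median of −0.39, a shift of only −0.14 from all genes. The 3 below −1, beside 2.97% of all genes, were assembly factors and not subunits: NDUFAF2 at −1.14, NDUFAF6 at −1.09 and NDUFAF5 at −1.02. The second probe set of NDUFAF5 gave only −0.41. In mitochondrial import TIMM13 and TOMM40 were below −1 among 28. The list of cytosolic heat shock proteins had a median of −0.48 over 26 genes, with none beyond 2-fold on its brightest probe set. HSPH1 and DNAJB1 came nearest at −0.95 and −0.94. The dimmer probe sets gave −1.24 and −1.21 for HSPH1 and −0.85 for DNAJB1. HSPA2, a heat shock protein that the list leaves out, had −1.64. Of 41 proteasome genes PSMB10, an immunoproteasome subunit, was the only one below −1, with 274 and 66.7 (−1.69), and the median was −0.49.

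Cytosolic ribosomal proteins, the parts that go into ribosomes, did not share the lower values. None of 59 was beyond 2-fold, and their median was 0.06, a shift of 0.30 above all genes. RPS18 had 12791 and 13257 (0.40) and RPL41 13537 and 13926 (0.38). The median had the opposite sign under some scalings, from −0.29 to 0.31. Most of these genes are among the brightest of the array, where the median ratio of all probe sets was also near 0, and the part of brightness was not tested.

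**Figure D4:**
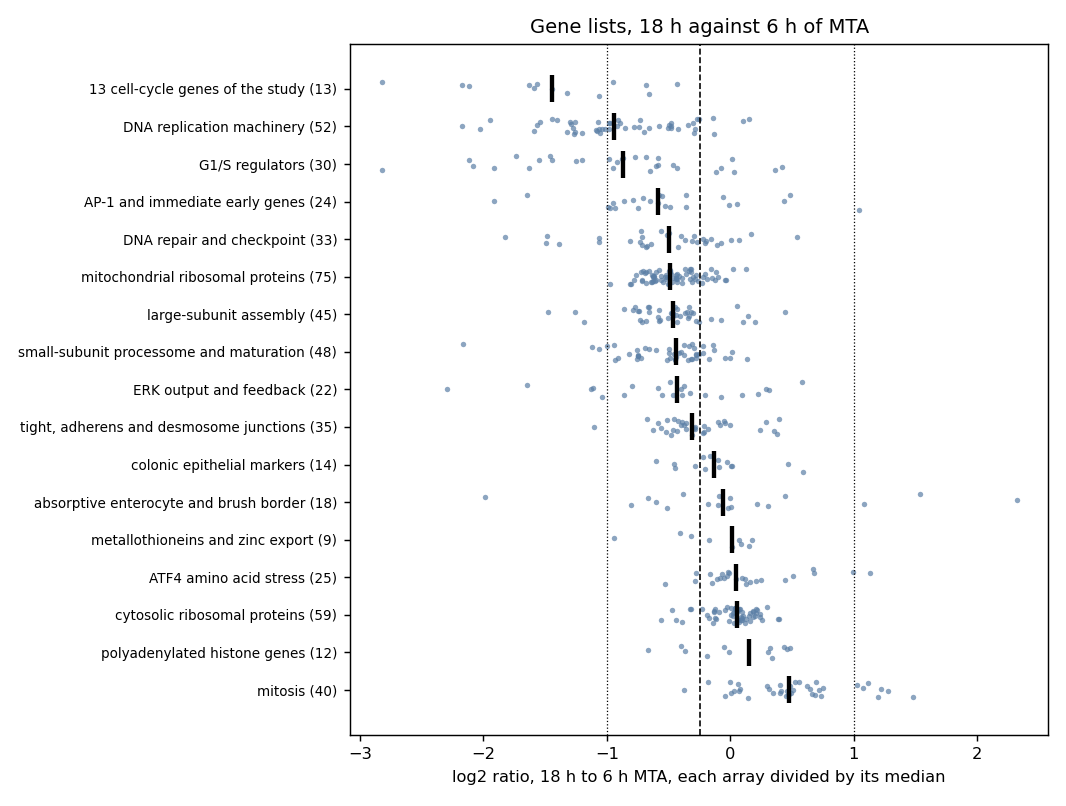
Log2 ratio of the 18 h to the 6 h MTA array (horizontal axis) for the reported members of 17 gene lists. Each gene is a point, the median of a list is its thick bar, the dashed line is the median over all genes, −0.25, and dotted lines mark 2-fold; numbers in parentheses are reported members. The bars run from −1.45 for the cell-cycle genes of the study and −0.95 for DNA replication to 0.48 for mitosis, and lists whose bar lies near 0 change sign under other scalings.

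Genes of the absorptive and brush border list moved in both directions. ALPG, an alkaline phosphatase, had the highest ratio of any gene at 50 or more on both arrays, with 51.9 at 6 h and 204 at 18 h, beside 38.8 without MTA and 107 after 12 h (log2 ratio 2.32). Its second probe set was dim, at 29.7 and 33.7. ALPP, the placental form, had 41.7 and 69.3 (1.08), while the intestinal form, ALPI, was below 10 on every array. These genes are near-identical copies, so the probe sets may read one another's transcripts and the gene is uncertain. SLC51B, a subunit of the bile acid exporter, had 93 and 212 (1.53). CA2, carbonic anhydrase II of the surface epithelium, ran the other way, with 599 at 6 h and 119 at 18 h (−1.99) and 285 at 0 h. Of 18 reported genes of the absorptive and brush border list, 3 were above 1 and 1 below −1, beside 0.932% and 2.97% of all genes. ALPG and ALPP, which may read 1 transcript, are counted there as 2 genes, and neither is the intestinal form. Of the 15 at 50 or more on both arrays, 2 were above 1 and 1 below −1. The median of the list was −0.06, and 19 of 37 on the array stayed below 50.

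The secretory, junction and transport genes showed few members beyond 2-fold. Over all genes, 2.97% were below −1 and 0.932% above 1. SPINK1, a secreted trypsin inhibitor, had 1422 and 464 (−1.27), and SPDEF, a transcription factor of goblet cells, had 1.05 from dim signals of 39 and 63.6. Among 35 junction genes NECTIN1 alone was below −1 (2.86%), near the share of all genes, with 201 and 73.8 (−1.10). CLDN2, a leaky claudin, had 355 and 181 (−0.63). None of 24 genes of ion and water transport was beyond 2-fold, and the lowest were SLC4A7, a bicarbonate transporter, and SGK1, a kinase that raises sodium uptake, both at −0.99. The medians were −0.15 for 11 goblet genes, −0.31 for junctions and −0.36 for transport. Of 19 stem cell and Wnt target genes APCDD1, a Wnt inhibitor, had 31.7 and 64.2 (1.36), and the median was 0.08, a shift of 0.33. The 14 epithelial markers had a median of −0.13 with none beyond 2-fold, and the 9 keratins had −0.10. The medians of the absorptive, goblet, stem cell, epithelial and keratin lists changed sign under other scalings.

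MT1G and MT2A, metallothioneins that bind zinc and copper, were above their 0 h level on both arrays and differed little between them. MT1G had 519 at 6 h and 460.1 at 18 h, beside 139.8 without MTA (log2 ratio 0.17), and MT2A had 511, 1545 and 1352 (0.15). MTF1, the transcription factor that drives them, had 213 and 87.6 (−0.94), and the median of 9 reported genes of the list was 0.01, from −0.33 to 0.27 under other scalings. Probes of these similar genes can read one another.

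Few genes of amino acid stress differed. SLC7A11, which imports cystine, had 87.2 at 6 h and 150.0 at 18 h (1.13, and 1.67 on its dimmer probe set), and ASNS, asparagine synthetase, had 899 and 1412 (0.99). Of 25 reported ATF4 targets SLC7A11 alone was beyond 2-fold, and the median was 0.04, a shift of 0.29, with values from −0.30 to 0.30 under other scalings. Glutathione genes were divided: CHAC2, which degrades glutathione, had 379 and 99.7 (−1.58) and ME1, which makes NADPH, 887 and 329 (−1.09). GCLM, of glutathione synthesis, had 773 and 294 (−1.05), but −0.61 and −0.35 on its other probe sets. In polyamine and methionine metabolism SRM, spermidine synthase, had 394 and 121 (−1.37) and ODC1, the first enzyme of polyamine synthesis, 3790.5 and 1323 (−1.17). ADI1, of methionine salvage, had 1303 and 488 (−1.07), which makes 3 of 24 genes below −1, beside 2.97% of all genes. Of 23 NRF2 and glutathione genes, 3 were below −1 and SLC7A11 above 1, beside 2.97% and 0.932% of all genes, with a median of −0.25.

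The p53 targets gave no single direction. TP53INP1, which promotes autophagy, had 132 and 206 (0.99), and TIGAR, which lowers glycolytic flux, and AEN, a nuclease of apoptosis, had −1.35 and −1.16. CDKN1A, the CDK inhibitor p21, had 580.1 at 6 h and 278 at 18 h, beside 282 without MTA and 495 after 12 h (−0.72), so it was lower after the longer treatment. None of the 5 reported CDK inhibitors was beyond 2-fold, and CDKN1B, p27, had −0.30. The medians were −0.17 for 21 p53 targets, −0.01 for 17 hypoxia-inducible genes, −0.05 for 21 glycolysis genes and −0.07 for 30 interferon-stimulated genes, of which IFIT1 had 34.6 and 84 (1.62). Lists of the Notch, BMP and TGF-beta, MYC and clock genes and of lysosome, cholesterol synthesis and splicing factors had no member beyond 2-fold. Their medians ran from −0.47 for cholesterol synthesis to −0.07 for Notch. Nor had 12 polyadenylated histone genes (median 0.15) or 9 long noncoding RNAs (−0.19) any. RARS1, arginyl-tRNA synthetase, was below −1 among 18 synthetases (−1.26, median −0.18), and CRELD2, an endoplasmic reticulum protein, among 22 chaperones and stress genes of that compartment (−1.17, median −0.26). Of 25 chromatin genes UHRF1 was below −1 and DHRS2 above 1 (median −0.24). Of 24 integrin and matrix genes LAMA5 was above 1 and PLEC, which links filaments to adhesions, was below −1 (median −0.20). PLEC had 86.4 and a dim 21.1 (−1.69). FN1 had 0.09 on its brightest probe set, but 0.96, 1.00 and 1.59 on its others. Of 223 zinc finger genes 2 were below (0.897%) and 1 above (0.448%), with a median of −0.18. For all these counts the shares over all genes were 2.97% below −1 and 0.932% above 1. The 13 housekeeping genes had a median of 0.05, with GAPDH at 0.07 and ACTB at −0.07. The medians of the CDK inhibitors, synthetases, endoplasmic reticulum, NRF2, hypoxia, glycolysis, p53, interferon, chromatin, integrin, zinc finger, Notch, BMP, clock, histone, noncoding RNA and housekeeping lists changed sign under other scalings.

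Several of the most changed genes are in none of these lists. CXCL8, a chemokine for neutrophils, had 491 at 6 h and 72.8 at 18 h (−2.41, and −1.94 on a second probe set). GPAT3, an enzyme of triglyceride synthesis, had 347 and 62.4 (−2.13), FAM111B, a protease, 446 and 89.2 (−1.98 and −2.40), and CHCHD3, which shapes mitochondrial cristae, 1113 and 243 (−1.85). LETM1, an ion exchanger of mitochondria, and HSPA2, a heat shock protein, were under 50 at 18 h, from 177 and 169 at 6 h, with −1.60 and −1.64, and HSPA2 had 16.6 at 0 h. CCDC57 and RPS6KA4 were also under 50 at 18 h, from 166 and 148, with −1.44 and −1.23.

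On the higher side, PRSS33, a serine protease, had 87.5 at 6 h and 281 at 18 h (2.03 and 2.04 on its pair of probe sets). LAMA5, a laminin chain of the basement membrane, had 165 and 435 (1.75), but 344 at 0 h. RGCC, a cell-cycle regulator that binds CDK1, was the brightest of the 12 highest genes, with 1735 and 3822 (1.48 and 1.77). PROX1, a homeobox transcription factor, had 232 and 529 (1.53, and 0.85 on the probe set that moved least), and ARID5B, a chromatin protein, 369 and 801 (1.46). PTGDS, prostaglandin D synthase, had 69.3 and 164 (1.59), DHRS2, a reductase, 101 and 216 (1.45), CLIP4, a microtubule binder, 50.2 and 118 (1.57), and KRTAP3-1, a hair keratin-associated protein, 51.6 and 123 (1.60). Under 50 at 6 h and brightest at 18 h among such genes were SELENOP, a selenium carrier (43.6 and 95.3), OSER1-DT (45.1 and 91.4), SLC33A2 (39.9 and 91), AHRR, a repressor of the aryl hydrocarbon receptor (37.9 and 85.2), IFIT1 and GPR173 (25.9 and 83.1).

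Repeated probe sets bear on how firm single genes are. Of the 306 lower genes, 83 had 2 or more reported probe sets. All of them were below −1 for 25 genes, and for 5 genes a probe set was above 0. Of the 96 higher genes, 22 had 2 or more, all of them above 1 for 8 genes, and none below 0. Of the genes named by the rule, 74 were below −1 and 43 of these stayed there under all the other scalings and a pseudocount, and 29 were above 1 and 19 stayed there.

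**Figure D5:**
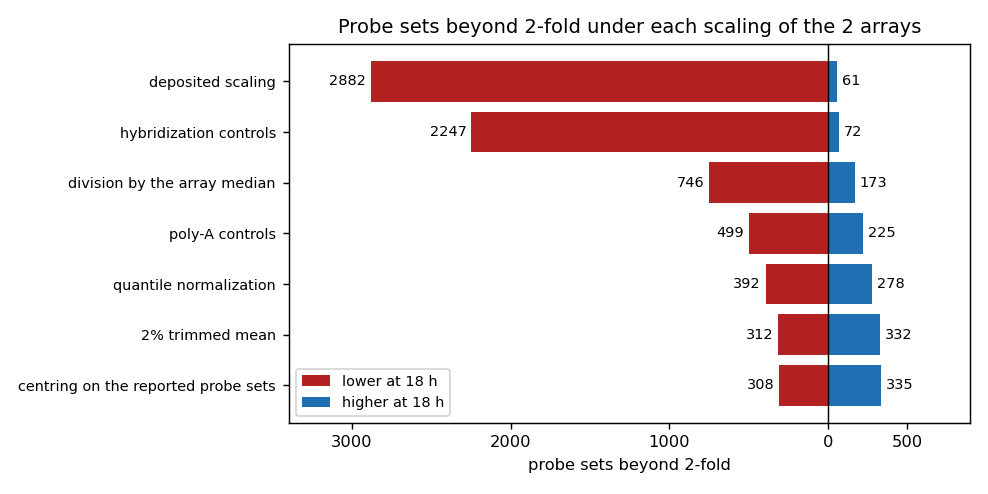
Number of reported probe sets lower (red, to the left) and higher (blue, to the right) by over 2-fold at 18 h than at 6 h of MTA, for each way of bringing the 2 arrays to 1 scale (vertical axis). The lower count runs from 308 with centred ratios to 2882 with the deposited scaling, and the higher count from 335 to 61.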

How the data were processed

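RCM-1 RNA was hybridised to Affymetrix U133 Plus 2.0 arrays, 1 for each of 4 durations of MTA, and the 18 h array was compared with the 6 h array. The values that the authors deposited are linear intensities, MAS5 signals from Affymetrix Expression Console after labelling from the 3′ end. Its version and its scaling target were not given in the sources used here.

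Control probe sets (62) were left out. Each array was divided by its median over all probe sets, probe sets with a deposited signal of 50 or more on at least one of the 2 arrays were kept, and log2 ratios were taken without a pseudocount. A log2 ratio beyond 1 (2-fold) was counted. No test was possible with 1 array a side. Precision is limited by how few arrays there are.

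Gene symbols came from GEO's platform annotation and were brought up to date with RefSeq (GRCh38.p14). Of those kept, 17435 had 1 symbol, 874 several and 1879 none. A gene is its kept probe set of 1 symbol with the highest geometric mean signal on the 2 arrays. Genes named were the 12 lowest and 12 highest at 50 or more on both arrays, per direction the 6 brightest with a signal under 50 on the other array, up to 5 members of each of 55 lists in the direction of its shift and up to 3 beyond 2-fold in the other, the cell-cycle genes shared by the study's terms, GAPDH, ACTB and cell type markers. The comparison, the lists and the rule were chosen with earlier results of these arrays known, and 4 more lists were added after the values had been seen. Promoters came from RefSeq for 8540 of 10295 genes. The calculation was tested on simulated data. Alternatives were 7 scalings, counting a pseudocount of 16 as one, 5 filters, thresholds of 1.5 and 2 and the mean over probe sets. The tools were pandas 2.3.3 and NumPy 2.4.6 under Python 3.11.15, SciPy 1.17.1 for intervals and matplotlib 3.10.9 for plots.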

Additional observations from a re-analysis of the deposited data

How the results depend on the processing

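The counts depended on scaling, filter and threshold, and no named gene beyond the threshold changed direction under any of them. The deposited scaling lowers every ratio by the same 0.34. Of 312 named genes, 14 moved by more than 0.329, the SD between probe sets at 50 or more on both arrays, with a pseudocount and 14 with the mean over probe sets. Probe sets lower and higher at 18 h numbered 2882 and 61 with the deposited scaling, 2247 and 72 relative to hybridization controls, 312 and 332 with the trimmed mean, 308 and 335 with centred ratios, 392 and 278 with quantile normalization, 356 and 79 with a pseudocount, 337 and 79 with 50 or more on both arrays, 443 and 68 with 100 and 280 and 37 with 200 or more on 1 array, 484 and 113 with a geometric mean of 50 or more, 7580 and 8103 with no filter, and 148 and 36 beyond 1.5 and 50 and 12 beyond 2 on the log2 scale. Relative to the poly-A controls, 499 were lower and 225 higher. The share of lower among them was 97.9% as deposited, 96.9% by hybridization controls, 48.4% by trimmed mean, 47.9% centred, 58.5% by quantiles, 68.9% by poly-A controls, 86.7% at 100 or more, 88.3% at 200 or more and 48.3% with no filter. Genes lower and higher numbered 1338 and 37, 1008 and 45, 131 and 175, 128 and 176, 147 and 155, and 180 and 49 in the order of the first 6 settings above, 202 lower by poly-A controls, 196 and 46 at 50 or more on both arrays, 178 and 29 at 200 or more, 42 higher at 100 or more, 1942 and 2346 with no filter, 63 and 21 beyond 1.5 and 15 and 6 beyond 2. Replication genes below the threshold numbered 35 as deposited, 15 by trimmed mean, 13 centred, 14 by quantiles, 6 beyond 1.5 and 2 beyond 2. G1/S regulators numbered 18 as deposited, 17 by hybridization controls, 7 beyond 1.5 and 3 beyond 2. Mitosis genes above it numbered 1 as deposited, 2 by hybridization controls and 0 beyond 1.5 and beyond 2. Apart from the settings that remove or add probe sets by construction, the cause was not tested. No paired analysis was possible because each duration has 1 array. Signal over background limits the dim genes, since with no filter most probe sets beyond the threshold are dim.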

Other observations

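These 4 gene groups were drawn up after the values had been seen, so their counts describe them and support nothing. Chemokines and other outputs of NF-kB, a transcription factor of inflammation, were lower at 18 h than at 6 h in 5 of 17 reported genes, beside 2.97% of all genes, and none was higher by over 2-fold. CCL20, which attracts lymphocytes, had signals of 609 at 6 h and 145 at 18 h, beside 98.6 without MTA and 349 after 12 h (log2 ratio −1.72). NFKBIZ, a regulator of such genes, had 759 at 6 h and 269 at 18 h (−1.15). CXCL1 and NFKB2 were dim at 18 h, at 34.4 and 16.3, with −1.39 and −1.29. The median of the group was −0.48.

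S-phase genes outside the replication and G1/S lists were lower in 14 of 31 reported cases, beside 2.97% of all genes, with a median of −0.95. The 14 are not all new: UNG (−1.49) was given with the repair genes above and ZNF367 (−1.55) is among the zinc finger genes. FAM111B (−1.98) was also named above. HELLS, a chromatin remodeller, had 953 and 249 (−1.59, with −0.90 on the probe set that moved least). GMNN, geminin, which blocks a second round of licensing, had 2641 and 1076 (−0.95). Further G2 and mitosis genes gave 3 of 34 above 1, beside 0.932% of all genes, and none below −1, with a median of 0.23. GAS2L3, of the cytokinesis bridge, had 419 and 671 (1.02), and MELK, a kinase, ran the other way at 1731 and 929.9 (−0.55).

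Amino acid transporters were higher in 4 of 16 reported cases, beside 0.932% of all genes, and in 3 of the 14 at 50 or more on both arrays, with a median of −0.04. They were SLC3A1 at 1.24, from a dim 39.9 at 6 h to 74.4 at 18 h, SLC7A11 at 1.13, SLC7A8 at 1.05 and SLC7A7 at 1.04, which carry cystine, neutral or basic amino acids. SLC7A8 had 0.66 on its other probe set.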
